A study of Mus musculus with 4 samples.

Results

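Core and linker histone genes were examined in CD24+ emergency progenitors (EPs) of the mouse spleen, by taking each gene symbol in the count files that names an H1, H2A, H2B, H3 or H4 gene and leaving out pseudogenes. The rule gave 79 of the 40213 symbols in the files. By their names, 64 of these were classed as replication-dependent genes (5 H1, 17 H2A, 17 H2B, 12 H3 and 13 H4), 9 as variant genes and 6 as germ line genes. The class was not set by how the mRNA of a gene ends. The 64 lie in the gene clusters Hist1 (51 genes), Hist2 (10), Hist3 (2) and Hist4 (1).

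Histones package DNA: H2A, H2B, H3 and H4 form the nucleosome core, and H1 binds the linker DNA between nucleosomes. Replication-dependent histone genes lack introns, are transcribed mainly in S phase, and make mRNAs that end in a conserved stem-loop bound by SLBP instead of a poly(A) tail. Variant histones such as H3.3 and H2A.Z are made throughout the cell cycle from mRNAs that are usually polyadenylated, and they are placed on DNA by chaperones that do not need replication.

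Bulk RNA-seq was measured on EPs, splenic cells that carry CD11c and CD117 and expand under Flt3 ligand, an inducer of dendritic cells (DCs). All mice, aged 7 to 10 weeks per the study's methods, were given 10 µg of Flt3L-Ig intraperitoneally on day 0 and day 3, and CD24+ EPs were sorted on day 9. The 2 WT libraries came from littermates with floxed, undeleted Topbp1 (TopBP1 fl/fl), and the 2 libraries labelled cKO came from TopBP1 fl/fl mice with CD11c-cre, which deletes only in cells where the CD11c promoter is or has been active. Per the study's methods the Cre transgene came on a B6.Cg background. The background of the floxed line and the sex of these mice were not found in the sources used here, and nothing says whether a library came from 1 mouse or from a pool, so p-values measure only the spread between these libraries.

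Library totals were 14561583 and 15193831 counts for WT replicates 1 and 2, and 15148032 and 15093476 for cKO replicates 1 and 2. Topbp1, which encodes a scaffold protein of DNA replication and repair, had 1102 and 1143 counts in WT and 773 and 1279 in the libraries labelled cKO (log2 fold change -0.20 ± 0.21 SE, FDR = 0.774, quasi-likelihood test of edgeR). The library labelled cKO replicate 2 thus held more Topbp1 counts than either WT library. Counts per gene do not show which exons were read, so whether Topbp1 was deleted in a library was not tested. Without that library the log2 fold change of Topbp1 was -0.605, and without cKO replicate 1 it was 0.106. The genes that define the gate were abundant in each library: Itgax, which encodes CD11c, had from 8776 to 10511 counts, Kit, which encodes CD117, from 5916 to 7181, and Cd24a from 11686 to 14001. Flt3, which encodes the receptor of the injected ligand, had from 9495 to 10563 counts.

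The stem-loop that marks a replication-dependent histone mRNA was searched in GENCODE M21 transcripts as GGNNCT, a loop of any 4 bases and AGNNCC, with each stem base paired. It was present in 45 of the 64 replication-dependent genes, against 0.492% of 55450 GENCODE genes. Of the other 19 models, 11 hold coding sequence only. Among the rest, that of H2bc21 has 2620 bases and no stem-loop, so its class rests on its name. In capitals below is the stem-loop, as DNA, with 5 bases on each side, for the genes the results turn on.
H1f4: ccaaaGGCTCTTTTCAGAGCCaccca
H2ac4: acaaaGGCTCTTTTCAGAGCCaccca
H2ac23: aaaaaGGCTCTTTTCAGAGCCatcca
H2bc3: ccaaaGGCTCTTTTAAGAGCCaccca
H3c2: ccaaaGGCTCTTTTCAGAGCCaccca
H4c4: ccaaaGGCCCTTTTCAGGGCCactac
H2ac19: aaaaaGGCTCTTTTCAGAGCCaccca
H2ac25: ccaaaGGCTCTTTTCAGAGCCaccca
H2ax: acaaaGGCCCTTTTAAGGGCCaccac
The same 16 bases, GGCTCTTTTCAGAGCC, occurred in 26 of the 45 genes, and those of H2bc3, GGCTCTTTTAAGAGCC, in 5. H2ac19 and H2ac25, whose levels were close in both groups, carry the same 16 bases as H1f4, H2ac4 and H2ac23, whose levels were higher in both libraries labelled cKO. H2ax was 1 of the 7 variant genes with a model and the only one of them with a stem-loop.

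Promoters from the RefSeq table, 250 bases before to 50 after each start on GRCm38.p6, were available for 59 of the 64 genes. They were searched on both strands for CCAAT, for the octamer ATTTGCAT, which Oct1 (Pou2f1) recognises, and for TATAAA, and no 2 different motifs overlapped in any of the 59. CCAAT was found in 84.7% of them against 37.9% of all 27025 promoters, ATTTGCAT in 18.6% against 1.75%, and TATAAA in 55.9% against 14.2%. The octamer was found in H2A (6 of 17) and H2B (5 of 15) promoters and in none of the H1, H3 and H4 promoters. CCAAT was found in each H1, H2A, H2B and H3 promoter but in 3 of 12 H4 promoters. The 59 promoters are not all separate DNA, since those of some neighbouring H2A and H2B genes overlap, such as H2ac15 and H2bc15. The neighbours H2ac12 and H2bc12 share the same octamer site, which counts for both genes, as do H2ac8 and H2bc8. Below, motifs are in capitals for an H2A gene and an H4 gene that were higher in both libraries labelled cKO (H2ac4, chr13:23750838-23751137, + strand; H4c4, chr13:23581318-23581617, + strand) and for an H2A gene of the Hist3 cluster that was not (H2ac25, chr11:58954435-58954734, + strand).
H2ac4: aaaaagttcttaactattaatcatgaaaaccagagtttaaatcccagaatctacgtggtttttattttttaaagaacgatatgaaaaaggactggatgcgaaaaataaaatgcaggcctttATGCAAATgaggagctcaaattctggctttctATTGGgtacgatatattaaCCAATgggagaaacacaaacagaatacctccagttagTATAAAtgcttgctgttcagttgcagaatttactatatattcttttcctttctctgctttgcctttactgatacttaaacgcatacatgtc
H4c4: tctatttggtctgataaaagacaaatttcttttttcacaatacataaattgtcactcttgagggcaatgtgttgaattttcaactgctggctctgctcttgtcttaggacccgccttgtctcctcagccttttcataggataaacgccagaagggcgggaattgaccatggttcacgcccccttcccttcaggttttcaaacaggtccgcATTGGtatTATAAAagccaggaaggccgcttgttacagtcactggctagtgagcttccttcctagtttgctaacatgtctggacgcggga
H2ac25: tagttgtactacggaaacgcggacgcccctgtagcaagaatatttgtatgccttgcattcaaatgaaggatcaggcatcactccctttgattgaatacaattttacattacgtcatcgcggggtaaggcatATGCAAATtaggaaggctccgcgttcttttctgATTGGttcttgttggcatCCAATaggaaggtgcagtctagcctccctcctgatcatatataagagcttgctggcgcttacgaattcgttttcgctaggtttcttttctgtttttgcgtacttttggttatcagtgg
The octamer and CCAAT stand in both H2A promoters, and TATAAA was found in that of H2ac4 but not in that of H2ac25. Among the genes tested, the median log2 fold change over the 8 with an octamer was 1.29, and over the 12 H2A and H2B genes with a promoter but no octamer it was 1.67. Without cKO replicate 2 these medians were 0.585 and 0.666. The summed levels were 1.51-fold and 1.22-fold of the WT mean in cKO replicate 1, and 2.11-fold and 2.23-fold in cKO replicate 2. The order of the 2 sets thus differed between these libraries, and their difference was not tested.

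Replication-dependent histone transcripts were a small share of each library. Their summed counts were 1630 and 1617 in WT and 2183 and 3895 in the libraries labelled cKO, or 0.0112% and 0.0106% against 0.0144% and 0.0258% of all counts. The exact 95% binomial intervals, which cover counting error only, were 0.0107% to 0.0118% and 0.0101% to 0.0112% in WT, and 0.0138% to 0.015% and 0.025% to 0.0266% in cKO. As CPM (counts scaled to the size of each library, with TMM factors from edgeR), the sum was 115 and 107 in WT and 143 and 252 in cKO. Both libraries labelled cKO thus lay above both WT libraries, and the 2 cKO libraries lay farther apart (SD 76.8 CPM, n = 2) than the WT libraries (SD 5.8 CPM, n = 2). With 2 libraries a group, an exact two-sided permutation test cannot give a p below 0.333, so sums are given without a test. In bulk RNA, more cells in S phase and more histone mRNA per cell cannot be told apart.

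Of the 64 replication-dependent genes, 41 passed the filter on low counts, and none of the 41 reached an FDR of 0.05 in the quasi-likelihood test, which called 0.105% of the 12393 genes tested. The lowest FDR among them was 0.307. Without adjustment, 16 of the 41 were higher in cKO at p under 0.05 (6.95% of all genes tested) and 0 were lower (3.77%). Both libraries labelled cKO lay above both WT libraries for 25 of the 41 (22.8% of all genes) and below for 1 (20.8%). Their median log2 fold change was 1.01, against 0.00841 for all genes tested. A gene may pass the filter because it is abundant in 1 group only, so these figures describe the 41 genes and not all 64. Over all 64, without the filter, 54 fold changes were above 0 and the median was 1.24.

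**Figure D1:**
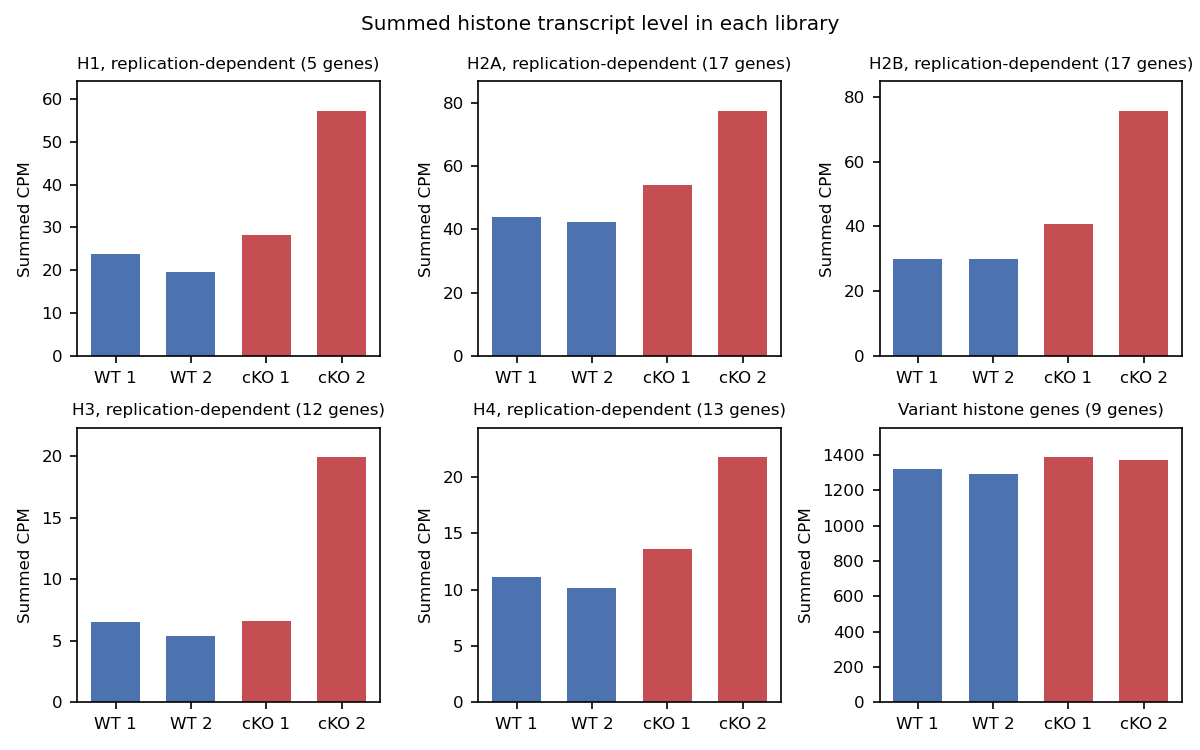
Summed CPM (vertical axis, from 0) of the replication-dependent genes of each histone family and of the 9 variant genes, in each of the 4 libraries (horizontal axis; blue WT, red labelled cKO; 1 bar a library, no error bar). In each replication-dependent family the bar of cKO replicate 2 is the highest, and the variant bars lie between 1292 and 1387.

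The linker histones H1 had summed levels of 23.8 and 19.5 CPM in WT and 28.2 and 57.2 CPM in cKO. H1f4, the most abundant of the 5, had 125 and 84 counts in WT and 172 and 368 in cKO. Both libraries labelled cKO were above both WT libraries (log2 fold change 1.29 ± 0.38 SE, FDR = 0.346). H1f2 had 105, 113, 121 and 210 counts in WT replicates 1 and 2 and cKO replicates 1 and 2 (log2 fold change 0.53 ± 0.29). H1f3 had 59, 55, 77 and 178 counts in the same order (1.09 ± 0.40). For all 5 H1 genes the highest library was cKO replicate 2, and cKO replicate 1 was above both WT libraries for 4. Both libraries labelled cKO lay above both WT libraries in 22.8% of all genes tested.

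H2A genes summed to 44 and 42.2 CPM in WT and 54 and 77.4 CPM in cKO, and the levels of single genes were split. H2ac23 had 105 and 41 counts in WT and 189 and 432 in cKO (log2 fold change 2.00 ± 0.51, FDR = 0.307). Its log2 fold change was 2.89 without WT replicate 1 and 1.43 without WT replicate 2, in which 93 counts went to its near-identical copy H2ac24. H2ac4 had 21 and 16 against 43 and 85 (1.71 ± 0.45, FDR = 0.307), and H2ac15 had 17 and 11 against 21 and 76 (1.70 ± 0.65, FDR = 0.418). The groups of these 3 genes did not overlap, which the rule that named H2ac4 and H2ac15 asks for. Those of H2ac19 and H2ac25, the others of the 3 most abundant H2A genes, overlapped. H2ac19 had 177 and 277 counts in WT and 237 and 202 in cKO (-0.11 ± 0.23). H2ac25 had 153 and 134 against 197 and 143 (0.17 ± 0.24). H2ac18 and H2ac10, named after their values were seen, also had overlapping groups. H2ac18 had 73 and 17 against 45 and 30 (-0.35 ± 0.64), and H2ac10 had 34 and 9 against 25 and 65 (0.97 ± 0.68).

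H2B genes summed to 29.8 and 29.9 CPM in WT and 40.8 and 75.7 CPM in cKO, with a median log2 fold change of 1.61 over 13 genes tested. H2bc4 had 95 and 103 counts in WT and 161 and 347 in cKO (log2 fold change 1.29 ± 0.35, FDR = 0.309). H2bc15 had 16 and 15 against 32 and 83 (1.81 ± 0.52, FDR = 0.34), and H2bc3 had 15 and 11 against 19 and 50 (1.32 ± 0.57, FDR = 0.466). These 3 genes were higher in both libraries labelled cKO. The rule that named H2bc15 and H2bc3 asks for groups that do not overlap. H2bc21, the H2B gene of Hist2 with the most counts, had 149 and 146 counts in WT and 165 and 117 in cKO (-0.13 ± 0.24), and its groups overlapped. Among genes with fewer counts, named here after their values were seen, H2bc7 had 3 and 1 counts in WT and 11 and 27 in cKO, and H2bc12 had 6 and 5 against 22 and 33.

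H3 genes were the least abundant family, at 6.5 and 5.36 CPM in WT and 6.63 and 19.9 CPM in cKO. Here cKO replicate 1 lay close to the higher WT library, and the difference between groups rested on cKO replicate 2. H3c2 had 6 and 8 counts in WT and 8 and 57 in cKO and did not pass the filter. H3c6 had 34 and 26 against 16 and 44 (log2 fold change -0.08 ± 0.53), so that its 2 cKO libraries lay on either side of WT. H3c14 had 0 and 8 against 12 and 54 (2.94 ± 1.07). Its log2 fold change was 1.505 without cKO replicate 2 and 8.004 without WT replicate 2. The median log2 fold change of the family was 0.16 over the 6 genes tested and 1.89 over all 12 with no filter. H4 genes summed to 11.1 and 10.1 CPM in WT and 13.6 and 21.7 CPM in cKO. All 8 tested had a fold change above 0, none with an unadjusted p under 0.05 (6.95% of all genes tested were higher at that p). H4c4 had 31 and 37 counts in WT and 44 and 80 in cKO (0.80 ± 0.38), H4c18 had 22 and 30 against 31 and 36 (0.30 ± 0.39), and H4c9 had 25 and 16 against 25 and 31 (0.37 ± 0.44).

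**Figure D2:**
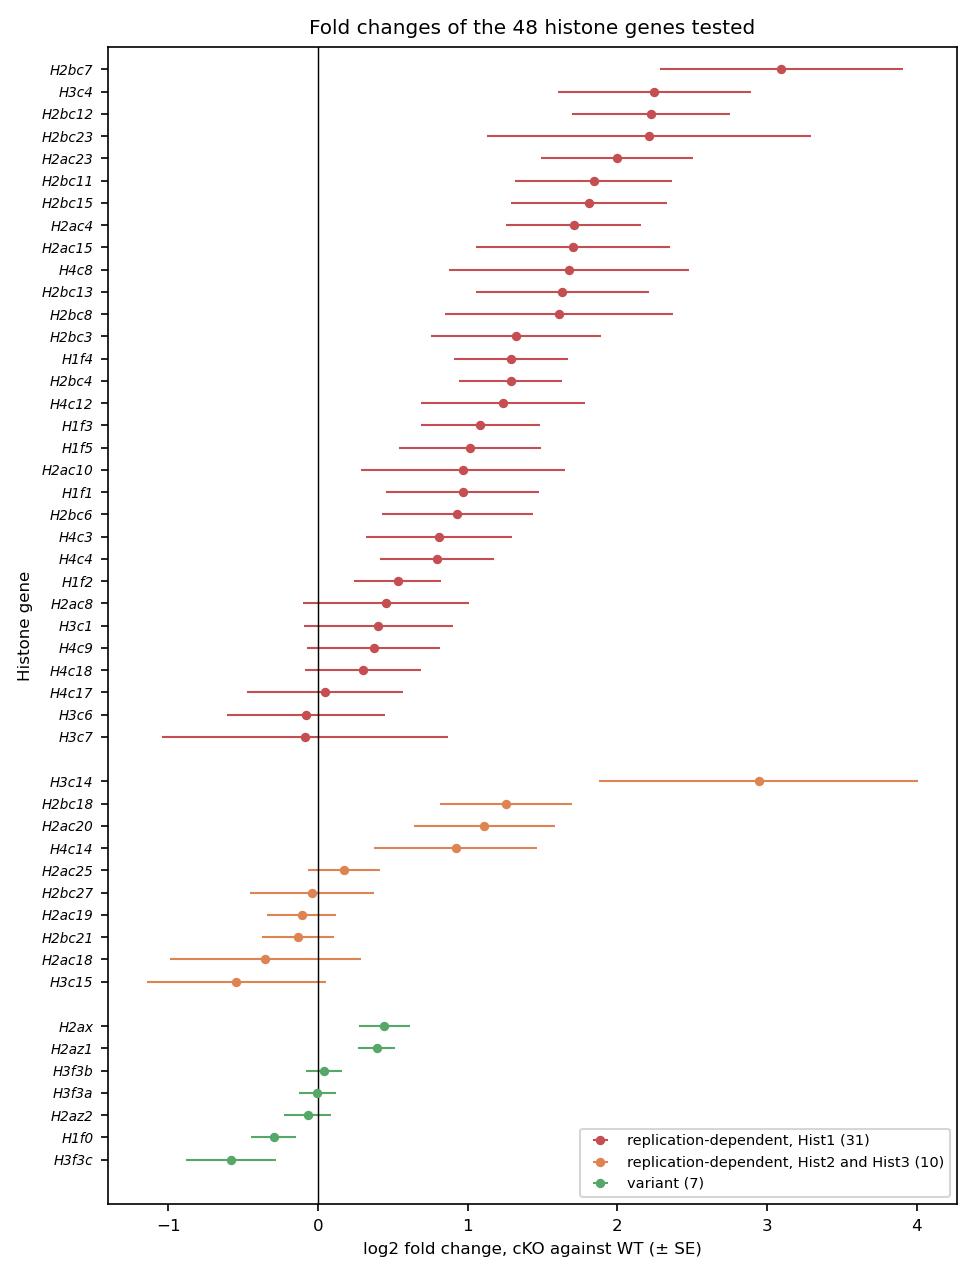
Log2 fold change of cKO against WT with its SE (horizontal axis, points and bars; 2 libraries a group) for the 48 histone genes tested (vertical axis), grouped by class and cluster. Of the 31 Hist1 genes 29 lie above 0, of the 10 in Hist2 and Hist3 5 do, and of the 7 variant genes 3 do.

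The summed levels also differed by cluster. The 51 Hist1 genes summed to 69.9 and 62.5 CPM in WT and 91.3 and 206 CPM in cKO, or 1.38-fold and 3.11-fold of the WT mean. The 13 genes of the other clusters summed to 45.3 and 44.5 CPM in WT and 52 and 46.2 CPM in cKO, or 1.16-fold and 1.03-fold. Of this sum H2bc21, whose model has no stem-loop, gave 10.5 and 9.66 CPM in WT and 10.8 and 7.57 CPM in cKO. The Hist1 share of replication-dependent counts was 60.7% and 58.4% in WT, 63.7% in cKO replicate 1 and 81.6% in cKO replicate 2. In cKO replicate 2, 46 of the 51 Hist1 genes were higher than in cKO replicate 1, against 3 of the 13 others. The median log2 fold change was 1.24 over the 31 Hist1 genes tested and 0.07 over the 10 others tested. Over these same genes, leaving out 1 library at a time gave 0.52 to 1.67 for Hist1 and -0.17 to 0.59 for the others. Without cKO replicate 2 the medians were 0.52 and 0.31, so that most of the gap between them rested on that library. Over all genes of each set, with no filter on low counts, it was 1.32 over the 51 Hist1 genes and 0.33 over the 13 others. Hist2 alone had a median of 0.41 over 8 genes tested and of 1.01 over all 10. Its genes H2ac20 (log2 fold change 1.11), H2bc18 (1.26), H3c14 (2.94) and H4c14 (0.92) were higher in both libraries labelled cKO than in both WT libraries. None of them was called, and all but H3c14 were named here after their values were seen. H3c15, also of Hist2 and named after its values were seen, had 10 and 11 counts in WT and 10 and 5 in cKO (-0.545). In CPM both its cKO libraries lay below both WT libraries. The small medians outside Hist1 thus do not describe each gene there. The difference between clusters was not tested.

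Some genes with little difference share a feature of their transcript models. AATAAA, the polyadenylation signal, stands in the last 60 bases of the model in 10 of the 64 genes, among them H2bc21 and H2ac25. The 10 summed to 33 and 30.5 CPM in WT and 37.9 and 39.4 CPM in cKO, or 1.19-fold and 1.24-fold of the WT mean. Much of this sum came from 2 genes, both outside Hist1. H2bc21 had 10.5 and 9.66 CPM in WT and 10.8 and 7.57 CPM in cKO. H2ac25 had 10.8 and 8.87 CPM in WT and 12.9 and 9.25 CPM in cKO. The sum thus does not describe each of the 10. Their median log2 fold change was 0.455 over the 7 tested, and 0.387 without cKO replicate 2. The 22 genes whose stem-loop lies at most 60 bases from the end of the model summed to 35.5 and 37.8 CPM in WT and 46.8 and 78.3 CPM in cKO, or 1.28-fold and 2.13-fold. The 23 genes whose stem-loop lies farther from the end summed to 47.3 and 41.2 CPM in WT and 57 and 96.2 CPM in cKO, or 1.29-fold and 2.18-fold. The sums of these 2 sets thus differed between the groups by about the same fold, but their medians did not. The median log2 fold change was 1.323 over the 13 nearer genes tested and 0.795 over the 17 farther ones. Without cKO replicate 2 it was 0.573 and 0.365. The difference between these 2 sets was not tested. H1f2 and H3c14, which also have AATAAA there, had log2 fold changes of 0.53 and 2.94, so that not each gene with AATAAA there had little difference, and H2ac19, with a log2 fold change of -0.11, does not have it. How far the library kit captures mRNA without a poly(A) tail was not given in the sources used here. Values were present for 11 RNAs that have no poly(A) tail by nature. The most abundant of them, the 7SK RNA (Rn7sk), had 980 and 752 counts in WT and 1129 and 969 in cKO. The 11 summed to 118 and 87.1 CPM in WT and 170.2 and 102 CPM in cKO. This sum was highest in cKO replicate 1, and the histone sum was highest in cKO replicate 2. Whether capture of mRNA without a poly(A) tail bears on the histone differences was not tested.

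Many histone genes are near-identical, and the counts of single copies depend on how reads that fit several copies were divided. Copies named here were chosen after their values were seen. H2ac24 had 93 counts in WT replicate 2 and 0 in the 3 other libraries. It shares 93.4% of its 31-base stretches with transcripts of other GENCODE genes, histone genes or not. Summed with H2ac23, the pair was at 7.42 and 8.87 CPM in WT and 12.4 and 27.9 CPM in cKO, with means of 8.14 and 20.2 CPM, where H2ac23 alone had 5.07 and 20.2 CPM. The WT values of the pair lie closer together than those of H2ac23 alone. H2bc24 had 46 and 4 counts in WT and 6 and 0 in cKO, and H2bc23 had 0 and 34 against 31 and 133. Their sum was 3.25 and 2.51 CPM in WT and 2.43 and 8.6 CPM in cKO, so that the pair was higher in cKO replicate 2 alone. H3c14 shares 100% of its stretches with transcripts of other GENCODE genes. The 10 genes that share under 20% of their stretches, for which such division matters least, summed to 30 and 28.4 CPM in WT and 34.3 and 51.8 CPM in cKO, or 1.18-fold and 1.77-fold of the WT mean.

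Variant histone genes were more abundant and closer between the groups. The 9 genes summed to 1323 and 1292 CPM in WT and 1387 and 1373 CPM in cKO, 1.06-fold and 1.05-fold of the WT mean. Of the 7 tested, none was called at an FDR of 0.05, the lowest FDR was 0.351, and the median log2 fold change was -0.01. At an unadjusted p under 0.05, 2 were higher (6.95% of all genes tested) and 0 lower (3.77%). H3f3a, which encodes H3.3, had 9092 and 9234 counts in WT and 9600 and 9553 in cKO (log2 fold change -0.01 ± 0.12). H3f3b, which encodes the same protein, had 4713 and 5098 against 5541 and 5046 (0.04 ± 0.12). For both H3.3 genes the groups overlapped in CPM.

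H2az1, which encodes H2A.Z, had 2910 and 2960 counts in WT and 3738 and 4352 in cKO (log2 fold change 0.39 ± 0.12, FDR = 0.351). H2ax, whose product is phosphorylated at DNA breaks, had 620 and 780 against 855 and 1139 (0.44 ± 0.17, FDR = 0.417). These were the 2 variant genes, of the 7 tested, with both libraries labelled cKO above both WT libraries (22.8% of all genes tested). H1f0, a linker histone of resting and differentiated cells, had 782 and 866 against 777 and 628 (-0.30 ± 0.15, FDR = 0.526). H3f3c had 92 and 70 against 59 and 55 (-0.58 ± 0.30), and H2az2 had 501 and 509 against 555 and 454 (-0.07 ± 0.16). H1f0 and H3f3c lay below WT in both libraries labelled cKO on the CPM scale, as did 20.8% of all genes tested, and neither passed the test.

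Per length, the replication-dependent share of H3 transcripts was low and differed between libraries. In CPM per kilobase, with lengths from GENCODE or RefSeq models, the 2 H3.3 genes summed to 393 and 384 in WT and 404 and 381 in cKO. The 12 replication-dependent H3 genes summed to 9.74 and 8.51 in WT and 11.5 and 35 in cKO. H3.3 was thus 40.4-fold and 45.2-fold as abundant per length in WT, 35.1-fold in cKO replicate 1 and 10.9-fold in cKO replicate 2. For H2A, variant genes were 3.04-fold and 3.06-fold as abundant in WT and 2.94-fold and 2.31-fold in cKO. For H1 the ratio lay near or below 1: variant genes were 0.871-fold and 1.1-fold as abundant as replication-dependent ones in WT, 0.681-fold in cKO replicate 1 and 0.266-fold in cKO replicate 2. These ratios hold for the RNA captured in the libraries, which may miss mRNA without a poly(A) tail.

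The germ line genes were at or near 0. H1f7, H1f8, H1f9, H2ac1 and H2bc1 had no count in any library, and H1f6 had 1 count in cKO replicate 2. A count of 0 in a library allows up to 3 counts, a limit for counting error only. Of 4 histone genes that the naming rule did not take, Cenpa, which encodes the centromeric H3, had 193 and 240 counts in WT and 287 and 430 in cKO (log2 fold change 0.66 ± 0.22, FDR = 0.365). Macroh2a1 had 12832 and 14382 against 14274 and 12867 (-0.07 ± 0.14), H2aj had 413 and 573 against 516 and 429 (-0.12 ± 0.18), and Macroh2a2 had at most 5 counts in a library.

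Genes of DNA replication and mitosis were set beside the histone genes. The 26 genes of an S phase list summed to 591 and 592 CPM in WT and 882 and 1991 CPM in cKO, 1.49-fold and 3.37-fold of the WT mean. All 26 had both libraries labelled cKO above both WT libraries (22.8% of all genes tested). None reached an FDR of 0.05, and 26 were higher at an unadjusted p under 0.05 (6.95% of all genes tested). The median log2 fold change was 1.45, and 0.587 without cKO replicate 2. Mcm6, a subunit of the replicative helicase, had 1122 and 1150 counts in WT and 1821 and 3867 in cKO (1.25 ± 0.30, FDR = 0.307). Pcna, the sliding clamp of DNA polymerases, had 1275 and 1345 against 1779 and 3271 (0.88 ± 0.25), and Mcm3 had 667 and 780 against 1182 and 2933 (1.44 ± 0.35). For each 100 CPM of the S phase list, Hist1 transcripts gave 11.8 and 10.6 CPM in WT and 10.3 and 10.3 CPM in cKO. Replication-dependent genes outside Hist1 gave 7.67 and 7.51 in WT and 5.89 and 2.32 in cKO. The Hist1 ratio thus lay between 10.3 and 11.8 in the 4 libraries, while that of the other clusters was lower in cKO replicate 2, and with 4 libraries no relation was tested.

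The 20 genes of a mitosis list summed to 674 and 624 CPM in WT and 819 and 2262 CPM in cKO. Their median log2 fold change was 1.27, and none was at an FDR of 0.05 (0.105% of all genes tested). All 20 had both libraries labelled cKO above both WT libraries (22.8% of all genes tested). Without cKO replicate 2 the median of the list was 0.397. Mki67, the Ki-67 antigen of cycling cells, had 3063 and 3052 counts in WT and 3861 and 12144 in cKO (1.31 ± 0.43). Top2a had 1428 and 1582 against 1940 and 5698 (1.27 ± 0.41), and Kif11 had 547 and 489 against 623 and 1901 (1.21 ± 0.43). As in the Hist1 sum, cKO replicate 2 was the highest library for each gene of both lists.

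**Figure D3:**
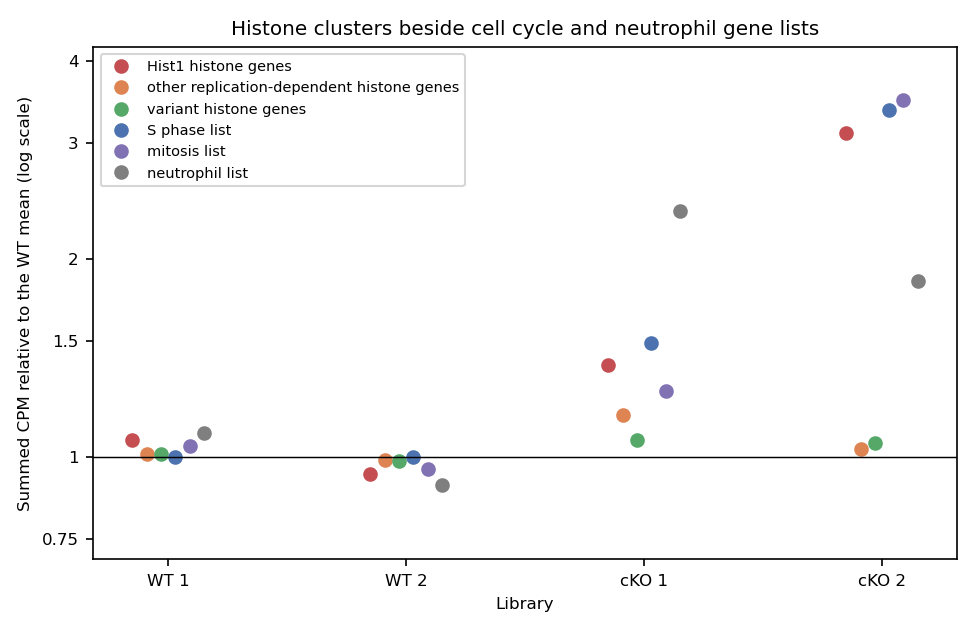
Summed CPM relative to the WT mean (vertical axis, log scale) in each of the 4 libraries (horizontal axis), for Hist1 genes, the other replication-dependent genes, variant genes and 3 gene lists; 1 point a library. In cKO replicate 2 the Hist1, S phase and mitosis sums stand at 3.11-fold, 3.37-fold and 3.49-fold, while the neutrophil sum stands at 2.37-fold in cKO replicate 1 and 1.85-fold in cKO replicate 2, an order that rests on Mpo and Elane.

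Markers of neutrophils, granulocytes that the gate could hold, also moved with the groups. The 14 markers summed to 1548 and 1286 CPM in WT and 3365 and 2619 CPM in cKO, with none at 0 in every library. Of the 14, 7 rose at an FDR under 0.05 (S100a8, S100a9, Ltf, Lcn2, Ngp, Cd177 and Chil3), where 0.105% of all genes tested were called. Mpo, the most abundant, had 8464 and 6391 counts in WT and 13311 and 3014 in cKO and did not pass the test. S100a9 had 3131 and 3014 counts in WT and 8777 and 9196 in cKO (log2 fold change 1.48 ± 0.12, FDR = 0.00762). The order of the neutrophil sum in the 2 libraries labelled cKO rested on Mpo and Elane, which were lower in cKO replicate 2. Without these 2 genes, left out after their values were seen, the other 12 summed to 851 and 798 CPM in WT and 2362 and 2390.1 CPM in cKO. Of the 14 markers, 8 were higher in cKO replicate 2 than in cKO replicate 1, against 46 of the 51 Hist1 genes. Markers of conventional DCs of type 2 (6 genes, Sirpa the most abundant) summed to 85.9 and 97.5 CPM in WT and 148 and 208 CPM in cKO, and none of the 6 was called. The log2 fold changes of the 3 most abundant were 1.01 for Sirpa, 1.67 for Itgam and 0.43 for Cd209a. T cell markers (6 genes in the files, Cd4 the most abundant) summed to 11.7 and 12.9 CPM in WT and 22.1 and 14.9 CPM in cKO, and erythroid markers (10 genes, Hba-a1 the most abundant) to 16.7 and 13.5 against 18.8 and 19.3 CPM. None of the markers in these 3 lists was at 0 in every library. The part of these cells in the histone differences was not tested.

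The machinery that makes and ends histone mRNA was close between the groups. Of 17 genes tested, none was called (0.105% of all genes tested), and the median log2 fold change was 0.20. None had an unadjusted p under 0.05, where 6.95% of all genes tested were higher and 3.77% lower. With so few genes, counts of 0 lie near those shares. Slbp, which binds the stem-loop, had 892 and 981 counts in WT and 885 and 1444 in cKO (0.24 ± 0.21). Npat, the coactivator of histone genes at S phase entry, had 411 and 344 against 393 and 592 (0.31 ± 0.22), and Casp8ap2, which encodes FLASH of the 3′ processing complex, had 752 and 713 against 712 and 1237 (0.34 ± 0.24). In each of these 3 genes cKO replicate 1 lay among or below the WT libraries in CPM and cKO replicate 2 was highest. Eri1, the exonuclease that trims the stem-loop end, had 931 and 919 against 1069 and 1412 (0.35 ± 0.16). The U7 snRNP genes Lsm10 and Lsm11 had log2 fold changes of 0.30 and -0.01, and Zfp473, which works with them and had from 6 to 27 counts, had 0.72. The remaining genes lay between -0.20 and 0.23: the cleavage factors Cpsf2, Cpsf3, Sympk and Cstf2, the cap-binding genes Ncbp1, Ncbp2 and Srrt, Upf1 of histone mRNA decay, the octamer-binding factor gene Pou2f1, and Hinfp, a regulator of H4 genes.

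Among the histone chaperones, the 5 highest fold changes were those of Tonsl, Asf1b, Chaf1b, Chaf1a and Mms22l, which work at the replication fork. Of 26 genes tested, none was called (0.105% of all genes tested), and the median log2 fold change was 0.19. At an unadjusted p under 0.05, 10 were higher (6.95% of all genes tested) and 1 lower (3.77%). Chaf1a and Chaf1b, subunits of CAF-1, which places new H3 and H4 behind the fork, had 201, 253, 343 and 770 and 77, 95, 131 and 311 counts in WT replicates 1 and 2 and cKO replicates 1 and 2 (log2 fold changes 1.22 ± 0.34 and 1.29 ± 0.39). Asf1b, which hands H3 and H4 to CAF-1, had 85, 91, 140 and 388 (1.51 ± 0.43, FDR = 0.337). Tonsl, which reads new H4, had 54, 69, 107 and 270 (1.54 ± 0.42, FDR = 0.313), and its partner Mms22l had a log2 fold change of 1.06. In these 5 genes both libraries labelled cKO were above both WT libraries and cKO replicate 2 was highest. Over the list, both were above in 14 of the 26 genes (22.8% of all genes tested) and below in 2 (20.8%).

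Other carriers of new histones were also higher: Nasp (log2 fold change 0.78 ± 0.25), Hat1, which acetylates new H4 (0.69 ± 0.24), Dnajc9 (0.65 ± 0.23), Asf1a (0.64 ± 0.21) and Hjurp, which loads the centromeric H3 (0.43 ± 0.16), had unadjusted p under 0.05 and FDR between 0.352 and 0.397. Genes that place H3.3 outside replication were close between groups, with log2 fold changes of 0.09 for Hira, -0.10 for Ubn1, -0.09 for Ubn2, -0.09 for Cabin1 and 0.06 for Atrx. Daxx, the H3.3 chaperone that works with Atrx, had 1534 and 1762 counts in WT and 1271 and 1121 in cKO (-0.53 ± 0.13, FDR = 0.307). It was the 1 gene of the list that was lower at an unadjusted p under 0.05, as were 3.77% of all genes tested. The genes of FACT (Ssrp1 0.16 and Supt16 0.05), of H2A.Z exchange (Anp32e 0.22, Vps72 -0.01 and Srcap 0.15), Rbbp4 (0.20), Rbbp7 (0.18), Nap1l1 (-0.01), Nap1l4 (0.05) and Ipo4 (0.29) lay between these.

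**Figure D4:**
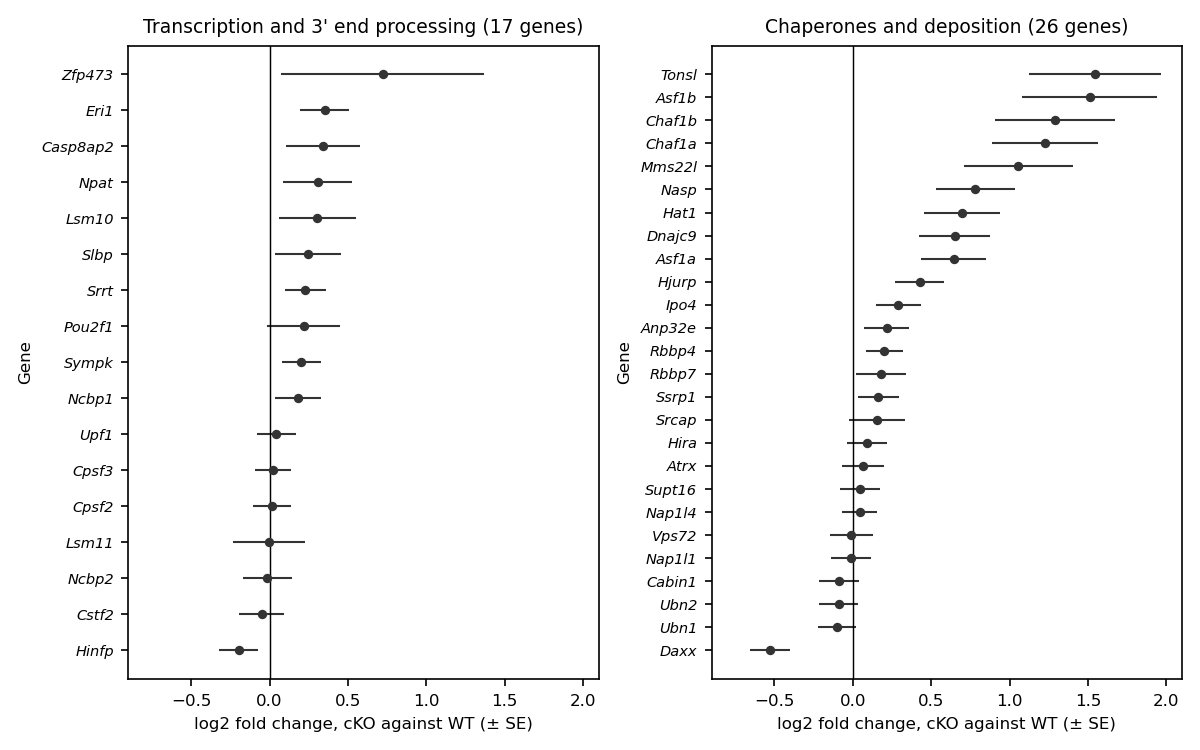
Log2 fold change of cKO against WT with its SE (horizontal axis; 2 libraries a group) for the genes of histone mRNA production (left) and of histone chaperones (right), 1 gene a line. Replication-linked chaperones such as Tonsl and Asf1b stand above 1 and Daxx at -0.53, while Zfp473 has the largest value on the left at 0.72.

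The size of the histone difference depended on 1 library. Without cKO replicate 2, the median log2 fold change of replication-dependent genes was 0.47 over 45 genes tested, 39 of them above 0, and 1 was called, against 1.74% of all genes tested. That gene was H2ac23 (log2 fold change 1.29), whose value also depended on which WT library was kept, as given above. Without cKO replicate 1, it was 1.70 over 58 genes tested, and 31 were called (29 of them higher), against 20.5% of all genes, and 3 variant genes were called: H2ax and H2az1 (higher) and H1f0 (lower). In these fits the lone library is taken to vary as the WT libraries do. The filter was applied anew in each fit, so the 2 medians cover different genes. Genes such as H2ac7 and H2ac11, called without cKO replicate 1, did not pass the filter with all 4 libraries. Over the 41 genes that did, the median was 0.508 without cKO replicate 2 and 1.495 without cKO replicate 1. H1f4 had a log2 fold change of 0.65 without cKO replicate 2 and 1.73 without cKO replicate 1, and H2bc4 had 0.64 and 1.73. In the median and in each of these 2 genes the direction held without either library, and the size did not. Of the other tests run on all 4 libraries without a block, the likelihood ratio test of edgeR called 6 replication-dependent genes, all higher (1.89% of all genes), DESeq2 called 0 (1.11%), with 14 higher at an unadjusted p under 0.05, and limma-voom called 0 (0.105%), with 13 higher at an unadjusted p under 0.05.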

How the data were processed

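Bulk RNA-seq of 2 WT and 2 libraries labelled cKO was analysed. Per the labels, the authors' tools were fastp, STAR, Salmon and GATK on GRCm39, and the deposited files hold whole-number read counts on each transcript, without normalization. Versions, poly(A) selection, the use of molecular identifiers and how reads matching more than 1 transcript were divided are not given in the sources used here.

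Counts were summed per gene symbol (92 transcript rows for the 79 histone genes, 70 with 1 row). Genes were filtered with filterByExpr and tested by the quasi-likelihood test of edgeR 4.0.16 in R 4.3.3, with TMM normalization, and p-values of the 12393 genes tested were adjusted together by the Benjamini-Hochberg method (FDR under 0.05). The biological coefficient of variation was 15.2%. DESeq2 1.42.0 and limma 3.58.1 were alternatives, as were other normalizations and filters, a replicate block and leaving out each library. No 2 libraries agreed within sampling noise.

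Histone members, gene lists and tests were chosen with earlier results of these data known. Named were Topbp1, members at FDR under 0.05, the 3 most abundant replication-dependent genes a family, variant genes tested, the 5 members with the largest change in each direction (mean of at least 20 counts, groups not overlapping), the 3 most abundant and the called genes of each list reported, and all processing and chaperone genes. Shared stretches of 31 bases, stem-loops and AATAAA were sought in GENCODE M21 transcripts, and promoters came from RefSeq (GRCm38.p6). Gene coordinates on GRCm39 were not used here.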

Additional observations from a re-analysis of the deposited data

How the results depend on the processing

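Under each of the 14 alternatives the median log2 fold change of replication-dependent histone genes was above 0. It kept within the spread between replicates (SD 0.343) in all but 2, and leaving out 1 library at a time gave 0.472 to 1.699, with 0 to 31 of these genes called. Variant genes had a median of -0.054 to 0.069, with 0 to 3 called, and all genes 1 to 2625 called. In the same fits the S phase list had a median of 0.587 to 2.009 (0 to 26 called), mitosis 0.397 to 1.795 (0 to 20), histone processing -0.047 to 0.291 (0 to 6) and chaperones 0.078 to 0.362 (0 to 14). Without cKO replicate 2, 223 genes were called, 1 of them a replication-dependent histone gene. Without WT replicate 1, 2 such genes were called, H2ac23 (higher) and its near-identical copy H2ac24 (lower). The likelihood ratio test called 234 genes: 6 replication-dependent histone genes, 16 of the S phase list, 5 of mitosis and 4 chaperones. DESeq2 called 137 genes, 9 of the S phase list, 8 of mitosis and 3 chaperones. With each transcript row as its own feature 0 genes were called, with 2018 rows at an unadjusted p under 0.05. A fit with the replicate number as a block called 504 genes (4.07%), 11 replication-dependent histone genes, 24 of the S phase list, 20 of mitosis and 8 chaperones. Same-numbered libraries did not deviate together (correlation -0.046) and no label ties them, so they share only a number. Fold changes close to 0 changed sign. With upper quartile normalization H3f3a was at 0.005, Lsm11 at 0.005, Vps72 at 0.003 and Nap1l1 at 0.0004. With library totals alone H3f3a was at 0.040, Lsm11 at 0.041, Ncbp2 at 0.031, Vps72 at 0.035 and Nap1l1 at 0.036. Wdfy4 was at -0.003 with DESeq2 size factors and with DESeq2, at -0.002 with no filter and at -0.00094 with at least 10 counts in every library. Mpo was at -0.285 with limma-voom and at -0.281 with the replicate block. Leaving out 1 library at a time gave log2 fold changes on both sides of 0 for Topbp1 (-0.605 to 0.106), H2ac19 (-0.358 to 0.182), H2ac25 (-0.089 to 0.387), H2bc21 (-0.416 to 0.094), H3c6 (-0.974 to 0.465), H2az2 (-0.236 to 0.069), H3f3a (-0.054 to 0.029), H3f3b (-0.040 to 0.110), Npat (-0.013 to 0.564), Casp8ap2 (-0.110 to 0.672), Slbp (-0.147 to 0.544), Lsm11 (-0.124 to 0.095), Cpsf2 (-0.052 to 0.077), Cpsf3 (-0.012 to 0.048), Zfp473 (-0.054 to 1.513), Cstf2 (-0.202 to 0.077), Ncbp1 (-0.001 to 0.333), Ncbp2 (-0.189 to 0.130), Upf1 (-0.066 to 0.148), Pou2f1 (-0.219 to 0.546), Rbbp7 (-0.069 to 0.384), Supt16 (-0.104 to 0.173), Ubn2 (-0.213 to 0.012), Atrx (-0.081 to 0.187), Vps72 (-0.123 to 0.087), Srcap (-0.158 to 0.400), Nap1l1 (-0.048 to 0.014), Mpo (-1.390 to 0.766), Macroh2a1 (-0.161 to 0.004), H2aj (-0.300 to 0.066), Rn7sk (-0.030 to 0.458), Rn7s2 (-0.198 to 0.639), Wdfy4 (-0.045 to 0.037) and Hba-a2 (-0.437 to 0.338). The cause of these shifts was not tested. Depth limits single histone genes: 23 of the 64 did not pass the filter. Which of the 64 passed changed with the library left out. Over the 41 that passed with all libraries, leaving out 1 library at a time gave medians of 0.508 to 1.495.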

Other observations

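Among the replication-dependent genes below the filter, several Hist1 genes had most of their counts in cKO replicate 2. They were chosen after their values were seen and were not tested. H3c10 had 1 and 0 counts in WT and 5 and 24 in cKO, H2ac7 had 0 and 0 against 0 and 17, and H2ac11 had 0 and 2 against 0 and 24. H2bc9 had 8 and 10 counts in WT and 10 and 73 in cKO, H3c11 had 5 and 6 against 4 and 41, and H4c2 had 6 and 10 against 6 and 38. In H2bc9, H3c11 and H4c2 the library labelled cKO replicate 1 lay near or below WT. H2bc22, also of Hist1, had 1 and 2 counts in WT and 2 and 0 in cKO, so that not each gene of the cluster followed the sum.

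The remaining marker lists, given here as values, had 1 called gene among them. Cox6a2, of the plasmacytoid DC list, had 0 and 3 counts in WT and 183 and 168 in cKO (FDR = 0.00762, quasi-likelihood test of edgeR). That list summed to 201 and 206 CPM in WT and 181 and 175 CPM in cKO, with log2 fold changes of -0.33 for Tcf4, -0.29 for Bst2 and -0.29 for Ccr9, its 3 most abundant genes. Markers of conventional DCs of type 1 summed to 8431 and 8453 CPM in WT and 8262 and 7693 CPM in cKO (0.00 for Wdfy4, -0.18 for Irf8 and -0.16 for Xcr1). B cell markers summed to 32.9 and 28.2 CPM in WT and 38.8 and 33.9 CPM in cKO (-0.18 for Ms4a1, 0.41 for Cd79b and 0.64 for Pax5), and macrophage markers to 204 and 222 against 207 and 184 CPM (-0.24 for Cd68, 0.59 for Csf1r and -0.40 for Vcam1). In the T cell list Lck and Cd3g had log2 fold changes of 1.13 and 1.25 and Cd4 0.19, and in the erythroid list Hba-a1, Hba-a2 and Hbb-bs had 0.49, -0.09 and 0.42. Of the RNAs without a poly(A) tail, Rn7s2 had 657 and 534 counts in WT and 975 and 551 in cKO, and Rn7s1 had 0 and 0 against 368 and 38 (FDR = 0.307).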
